A study of Mus musculus with 2 samples.

Results

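The Notch pathway was followed in cultured mouse mesenchyme through 10 genes. They are the receptor genes Notch1, Notch2, Notch3 and Notch4, the ligand genes Jag1, Jag2 and Dll1, and the target genes Hes1, Hey1 and Heyl. The genes were taken by symbol, with no threshold on a measured value, although earlier results of these data were known when they were chosen. They are represented by 20 of the 34945 probe sets that name a single gene, and they are 10 of 18193 named genes on the array. The cells were urogenital sinus mesenchyme (UGM), the stroma around the epithelium from which the prostate buds, taken from male C57BL/6 mice at day 16 and given no label of genetic alteration.

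The T+E2 culture received testosterone (12 nM) and estradiol-17β (120 pM) for 72 h. The untreated culture was kept for the same time without added hormone. Both groups were cultured in RPMI medium with the antibiotic Plasmocin (5 µg/ml) and 5% serum stripped of steroids with dextran and charcoal. One label gives 24 h in place of 72 h for both samples. Passage number and the number of animals behind each culture are not given in the sources used here. Each group had 1 array, so every difference below is between 2 arrays, cannot be set against a spread between cultures, and carries no p-value. The descriptions call the untreated cells confluent and the T+E2 cells nearly confluent, whereas the growth protocol gives 80% confluency for both. Notch ligands act between touching cells, and an effect of density cannot be told apart from that of the hormones.

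Notch proteins are receptors in the cell membrane that are activated by Jagged and Delta-like ligands on a neighbouring cell. Binding lets the metalloprotease Adam10 and then the γ-secretase complex cut the receptor, which frees its intracellular domain. That domain enters the nucleus and joins the DNA-binding protein Rbpj and a Mastermind-like coactivator at target genes. The best known targets, of the Hes and Hey families, encode basic helix-loop-helix repressors. The pathway takes part in the development of the rodent prostate, in epithelium and in stroma.

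Of the 10 genes, 7 matched a promoter entry of RefSeq (assembly GRCm38.p6), with 8 start sites between them. The target genes Hes1, Hey1 and Heyl had no entry. The 150 bases before the start site are printed 5′ to 3′ for Notch1, Notch2 and Notch3, the receptor genes that lay on the same side, and for Notch4 and Jag1, the receptor gene without signal and the ligand gene with signal. Capitals mark GC boxes, the letters GGGCGG on either strand, which the transcription factor Sp1 can bind. The stretches lie at chr2:26503823-26503972 (minus strand) for Notch1, chr3:98013388-98013537 (plus strand) for Notch2, chr17:32166891-32167040 (minus strand) for Notch3, chr17:34564145-34564294 (plus strand) for Notch4 and chr2:137116521-137116670 (minus strand) for Jag1.
Notch1: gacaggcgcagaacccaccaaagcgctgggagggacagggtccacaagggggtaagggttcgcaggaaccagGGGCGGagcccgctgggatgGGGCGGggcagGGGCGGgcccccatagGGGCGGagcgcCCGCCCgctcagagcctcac
Notch2: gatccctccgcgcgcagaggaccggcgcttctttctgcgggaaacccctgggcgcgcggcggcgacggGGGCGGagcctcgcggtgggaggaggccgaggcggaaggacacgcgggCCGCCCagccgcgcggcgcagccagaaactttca
Notch3: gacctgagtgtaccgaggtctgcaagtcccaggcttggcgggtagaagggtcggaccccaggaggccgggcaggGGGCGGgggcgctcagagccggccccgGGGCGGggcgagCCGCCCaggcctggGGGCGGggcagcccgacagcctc
Notch4: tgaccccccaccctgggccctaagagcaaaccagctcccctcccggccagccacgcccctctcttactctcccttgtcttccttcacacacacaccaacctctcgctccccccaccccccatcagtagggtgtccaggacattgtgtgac
Jag1: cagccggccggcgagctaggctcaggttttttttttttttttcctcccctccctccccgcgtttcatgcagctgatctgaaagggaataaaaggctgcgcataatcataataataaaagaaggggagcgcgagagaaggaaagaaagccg

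The 250 bases before the start held 5 GC boxes in Notch1, 5 in Notch2 (2 of them in the stretch shown) and 4 in Notch3, against none in Notch4 or Jag1. Jag2 held 5, of which 2 overlap, and neither start site of Dll1 held any. Of all 32851 promoter windows of this length, 32.7% held at least 1. The G and C content was 66% for Notch1, 72% for Notch2 and 68.8% for Notch3, against a median of 52.4% over all windows (interquartile range 45.2 to 61.2%). The other members with a window also lay above that median, with Jag2 at 87.2%, Dll1 at 64% and 56%, Notch4 at 58.4% and Jag1 at 57.2%. Other motifs were searched in the same windows, on both strands. The letters TGGGAA, a core of the Rbpj site, stood in 0 of the 8 windows of the members and in 21.6% of all windows. Those 8 windows belong to receptor and ligand genes alone, so no promoter of a target gene was searched. AGAACA, a half-site of the androgen receptor and its relatives, stood once, in Dll1, and in 16.1% of all windows. GGTCA, a half-site of the estrogen receptors, stood 3 times in Notch4 and 2 times at 1 of the Dll1 start sites, and in 35.2% of all windows. The match is one of letters alone, in a short window, and says nothing of factors bound there or elsewhere.

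The arrays gave GCRMA intensities. GCRMA corrects the background by probe sequence and leaves probe sets without signal at a low value. Probe sets under a log2 intensity of 5 (an intensity of 32) were treated as unmeasured, and 42.1% of all 45101 probe sets reached this floor on the T+E2 array and 42.9% on the untreated array. Differences are log2 levels with T+E2 minus those in untreated cells. Of the 18193 named genes, 10267 reached the floor on at least 1 array, and their median difference was 0.07 (interquartile range -0.32 to 0.45). With T+E2, 509 of them were higher by 2-fold or more and 412 lower, a split that became 408 and 520 when the differences were centred on their median, 390 and 518 with a trend with level removed, and 301 and 429 with a trend with genomic span removed. The 18 hybridization spike probe sets, which should not differ, ranged from -0.25 to 0.09.

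Of the 10 members, 6 were measured (Notch1, Notch2, Notch3, Jag1, Hes1 and Hey1), and the other 4 lay at background on both arrays. The receptors were higher with T+E2 by 1.77-fold to 2.12-fold, the ligand Jag1 by 1.21-fold, and the targets lay on opposite sides. At least 2-fold higher was 1 of the 6 measured members, Notch3, against 4.96% of all measured genes. At least 2-fold lower were 0 of the 6, against 4.01% of all measured genes. These 6 reached the floor on both arrays, so none entered through 1 array alone. As RNA was taken from whole cultures, fewer cells with a transcript and less transcript per cell cannot be told apart. Intensities of different probe sets depend on the probes, so no order of level among the genes is given.

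**Figure D1:**
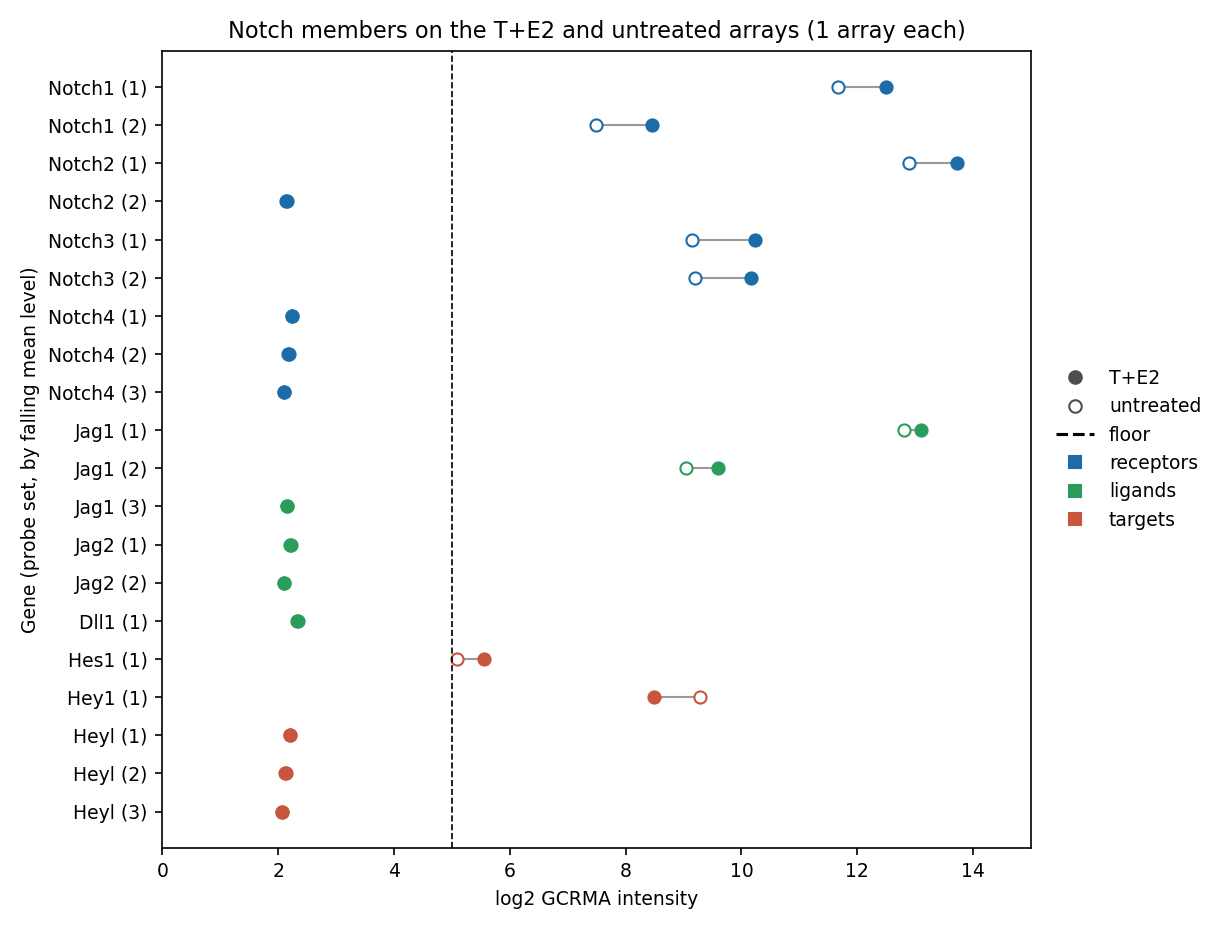
The log2 GCRMA intensity (x axis) of each of the 20 probe sets of the 10 members (y axis), with filled points for the T+E2 array and open points for the untreated array. The 5 receptor probe sets above the floor lie further right with T+E2, Hey1 lies further left, and 11 probe sets sit near a log2 of 2 on both arrays.

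Notch3, a receptor best known from the mural cells of blood vessels, had an intensity of 1208 with T+E2, against 568 in untreated cells. That is a log2 difference of 1.09 (2.12-fold). A second probe set read 1147 with T+E2 and 584 in untreated cells, a difference of 0.97. Both probe sets were thus higher with T+E2, one just past 2-fold and the other just short of it, and they had nearly the same mean level. Across all measured genes, 391 (3.81%) had a difference at least as high as that of Notch3.

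Notch1, the best studied receptor of the family, had an intensity of 5806 with T+E2 and 3251 in untreated cells. Its difference of 0.84 (1.79-fold) was matched or exceeded by 834 measured genes (8.12%). Its second probe set read 350 with T+E2 and 179 in untreated cells, a difference of 0.96. Both probe sets therefore lay on the same side, each under 2-fold.

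Notch2, a widely expressed receptor, had an intensity of 13486 with T+E2 and 7599 in untreated cells, a difference of 0.83 (1.77-fold). Its other probe set stayed at background, at 4.42 with T+E2 and 4.41 in untreated cells, so a single probe set carries the value. Notch4, known from endothelium, gave no signal on any of its 3 probe sets. The highest of these read 4.72 on the T+E2 array and 4.72 on the untreated array. The median difference of the 3 measured receptors was 0.84, against 0.07 for all measured genes.

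Jag1, which encodes the ligand Jagged1, was the only one of the 3 ligand genes with signal. It had an intensity of 8746 with T+E2 and 7208 in untreated cells, a difference of 0.28 (1.21-fold). A second probe set read 775 with T+E2 and 526 in untreated cells (0.56), and its last one was at background. Both probe sets with signal were higher with T+E2 by less than any measured receptor, and 36.0% of all measured genes had a difference at least as high as that of Jag1. Jag2 and the Delta-like ligand gene Dll1 lay at background. Jag2 read 4.65 with T+E2 and 4.60 in untreated cells on its higher probe set, and Dll1 read 5.04 with T+E2 and 5.02 in untreated cells on its single one.

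Hey1, a repressor gene that Notch signalling induces in many cell types, was the only measured member that was lower with T+E2. Its single probe set read 358 with T+E2 and 622 in untreated cells, a difference of -0.80 (1.74-fold lower). Among all measured genes, 819 (7.98%) had a difference at least as low. The difference of Notch3, the highest of the 6 measured members, exceeded that of Hey1, the lowest, by 1.88 on the log2 scale.

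Hes1, the repressor gene most often used as a readout of Notch, was barely above the floor. Its single probe set read 46.8 with T+E2 and 34.2 in untreated cells, a difference of 0.45 (1.37-fold). Heyl, another repressor gene of the family, lay at background on all 3 probe sets, the highest at 4.63 with T+E2 and 4.61 in untreated cells. Of the targets, 1 was thus well above the floor and lower with T+E2, 1 was near the floor and higher, and 1 was unmeasured. The activity of the pathway itself, the cleaved receptor, was not measured.

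Beyond these members, a list of 63 further genes of the pathway was examined. Of these, 58 had a probe set of their own, 42 were measured and 16 lay under the floor. By the highest probe set of each gene, 2 of the 42 were higher with T+E2 by 2-fold or more, 2 were lower by as much, and 38 lay between. Those shares are near the ones over all measured genes, 4.96% higher and 4.01% lower. Above 0 were 30 and below 0 were 12, against 55.8% above 0 among all measured genes. The median difference was 0.28, against 0.07 for all measured genes.

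All 4 genes past 2-fold encode corepressors or proteases. Tle3, a corepressor of the Groucho family that Hes proteins recruit, read 3148 with T+E2 and 1269 in untreated cells, a difference of 1.31. Its second probe set gave the same difference, 1.31, and its other 2 were at background. Tle4, a relative, read 1357 with T+E2 and 550 in untreated cells on the only one of its 3 probe sets with signal (1.30). With all probe sets of a gene averaged, background ones included, Tle3 came to 0.65 and Tle4 to 0.43, both under 2-fold. Tle2, of the same family, lay on the other side, at 390 with T+E2 and 1368 in untreated cells (-1.81). Members of this one corepressor family thus differed in both directions, and among the 8 measured corepressors 4 lay above 0 and 4 below. Psen2, which encodes a catalytic subunit of γ-secretase, read 58.1 with T+E2 and 117 in untreated cells (-1.01). That value rests on the only one of its 2 probe sets with signal, is just past 2-fold, and came to -0.73 when 32 was added to each intensity and to -0.51 with both probe sets averaged.

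In the nuclear complex none of 7 measured genes was past 2-fold by its highest probe set, and 5 lay above 0, with a median of 0.48. The histone acetyltransferase genes Ep300 (0.94) and Crebbp (0.88), whose proteins the complex recruits, and the coactivator gene Maml1 (0.79) were nearest to 2-fold. A second probe set was past it for Crebbp (1.13) and for Maml1 (1.08). Rbpj, the DNA-binding partner of every Notch receptor, had an intensity of 6818 with T+E2 and 5602 in untreated cells, a difference of 0.28. All 3 of its probe sets were higher with T+E2. Rbpj therefore differed by about as much as Jag1 and by less than the receptors.

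Of 8 measured genes of proteases that cut the receptors or their precursors, 6 lay above 0, and the median was 0.22. Psen2 was the one past 2-fold by its highest probe set, on the lower side. The γ-secretase subunit gene Aph1a stood at 0.35, with further probe sets at 0.47 and 1.14, the latter past 2-fold. Adam17, a shedding protease, stood at 0.57, Adam10, which makes the first ligand-dependent cut, at 0.34 and the γ-secretase subunit gene Ncstn at 0.03. Further Adam10 probe sets above the floor gave larger differences, 0.77 and 0.82. In receptor glycosylation, which tunes the response to each ligand, 4 genes were measured, 2 on each side of 0. The O-fucosyltransferase gene Pofut1 stood at 0.45 and the Fringe gene Lfng at -0.30. A second Pofut1 probe set above the floor gave 0.99.

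Genes of ligand and receptor ubiquitination and trafficking lay mostly above 0, in 12 of 13 measured, with a median of 0.51. None was at 2-fold by its highest probe set. Dtx4, a Deltex ubiquitin ligase gene, stood at 0.85, although its second probe set gave -0.15. The endocytic kinase gene Aak1 stood at 0.79 and Numb, which encodes an inhibitor of Notch, at 0.58. Further Aak1 probe sets above the floor on both arrays gave 0.99 and 1.62, the latter past 2-fold. Further probe sets of other genes in the group lay on either side of 0. Of the further ligands, Dlk1, a non-canonical ligand gene without the domain that binds Notch in classical ligands, stood at 0.17, and Dll3, Dll4 and Dlk2 were under the floor. Of 7 further genes grouped with the targets, Hes6 alone was measured, and whether Notch induces it in these cells was not tested. Hes6 read 2808 with T+E2 and 4267 in untreated cells (-0.60), while Hes2, Hes3, Hes5, Hes7, Hey2 and Nrarp were under the floor. Its second probe set read 48.7 with T+E2 and 106 in untreated cells (-1.12), past 2-fold on the same side. Hes6, unlike its relatives, is known from mouse neural cells to counteract Hes1.

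**Figure D2:**
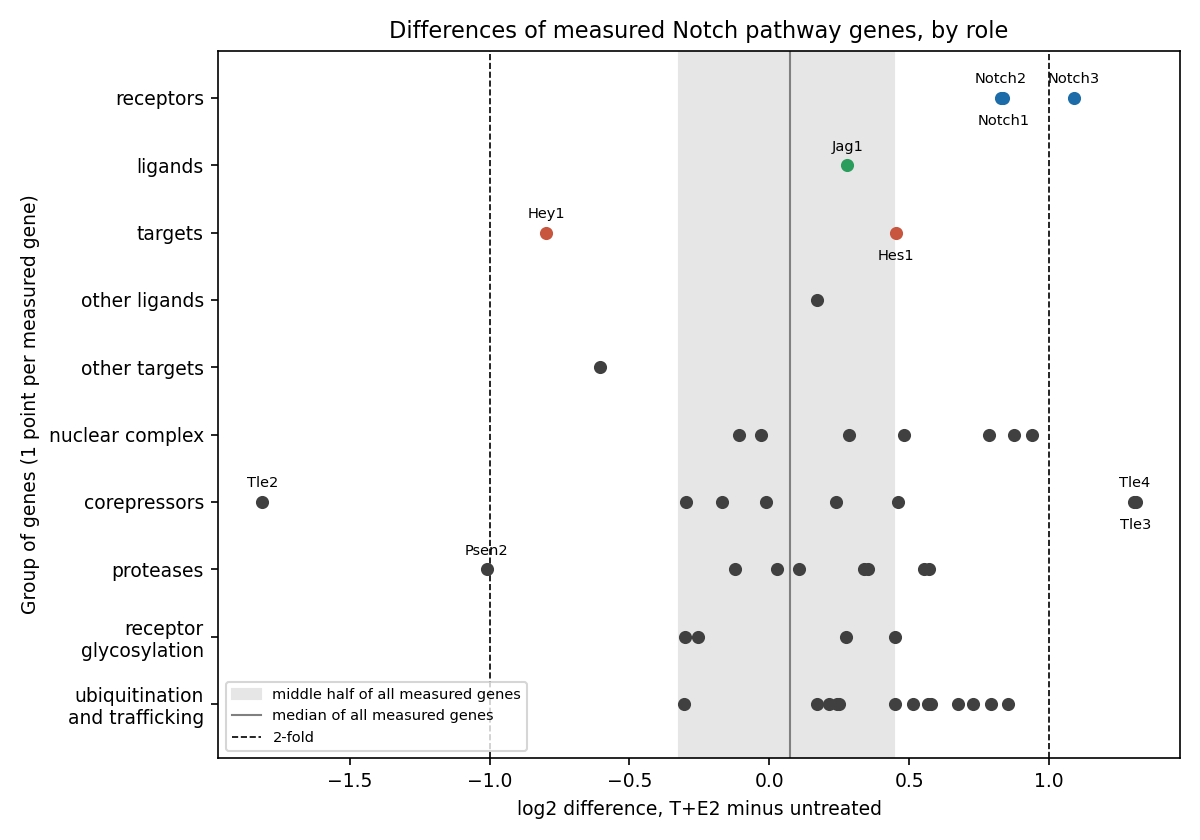
The log2 difference, T+E2 minus untreated (x axis), of each measured member and each further measured pathway gene, 1 point per gene, in rows by role (y axis). The band is the interquartile range of all measured genes (-0.32 to 0.45), the grey line their median (0.07) and the dashed lines 2-fold; the 3 receptors lie right of the band, Hey1 left of it.

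Genomic span, the length of a gene from first to last base, moved with the difference across all genes, and the members differ widely in it. Over 10237 measured genes with a span, Spearman's rho between span and difference was 0.38, a description across genes, which share the same 2 arrays. Among 5 bins of near equal size, the bin of shortest spans (0.073 to 8.53 kb) had 2048 genes. Their median difference was -0.19, and 2.05% of them were higher by 2-fold or more. In the bin of longest spans (70.8 to 2390 kb) the median was 0.46, and 13.2% were higher by 2-fold or more. Hes1 (2.44 kb) and Hey1 (3.68 kb) lie in the shortest bin. Jag1 (35.1 kb), Notch1 (45.9 kb) and Notch3 (46.1 kb) lie in the bin from 33.2 to 70.8 kb, where the median was 0.21 and 4.54% were higher by 2-fold or more. Notch2 (137 kb) lies in the longest bin.

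With the trend with span removed, Notch3 stood at 0.92 and Notch1 at 0.67. Jag1 stood at 0.18, Hes1 at 0.69 and Hey1 at -0.60. All 6 kept their side, none was at 2-fold, and Notch2 came to 0.38, against 0.83 as deposited. The median of the 2 measured targets, -0.17 as deposited, came to 0.042.

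The further pathway genes moved too, and the longest of them moved most. Of the further genes past 2-fold as deposited, Tle3 (46.2 kb) stood at 1.14, Tle2 (17.8 kb) at -1.77 and Psen2 (36.5 kb) at -1.12. Tle4 (150 kb) stood at 0.84, under 2-fold. Rbpj (102 kb) came to -0.10 and Adam10 (101 kb) to -0.05, on the other side of 0 from their values as deposited. Both values rest on the highest probe set, and each gene had a further probe set with a larger difference. Crebbp stood at 0.43, Aak1 at 0.32 and Numb at 0.14. The median of all 42 further genes was 0.15 in place of 0.28, with 27 above 0 and 15 below. Among all 10237 measured genes with a span, 5247 lay above 0 and 4990 below after the same removal, with a median of 0.014. In the ubiquitination and trafficking group 9 of 13 lay above 0, with a median of 0.32. The median of the nuclear complex was 0.12, and that of the corepressors, 0.11 as deposited, was -0.06. The part of span in the Notch differences was not tested further.

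**Figure D3:**
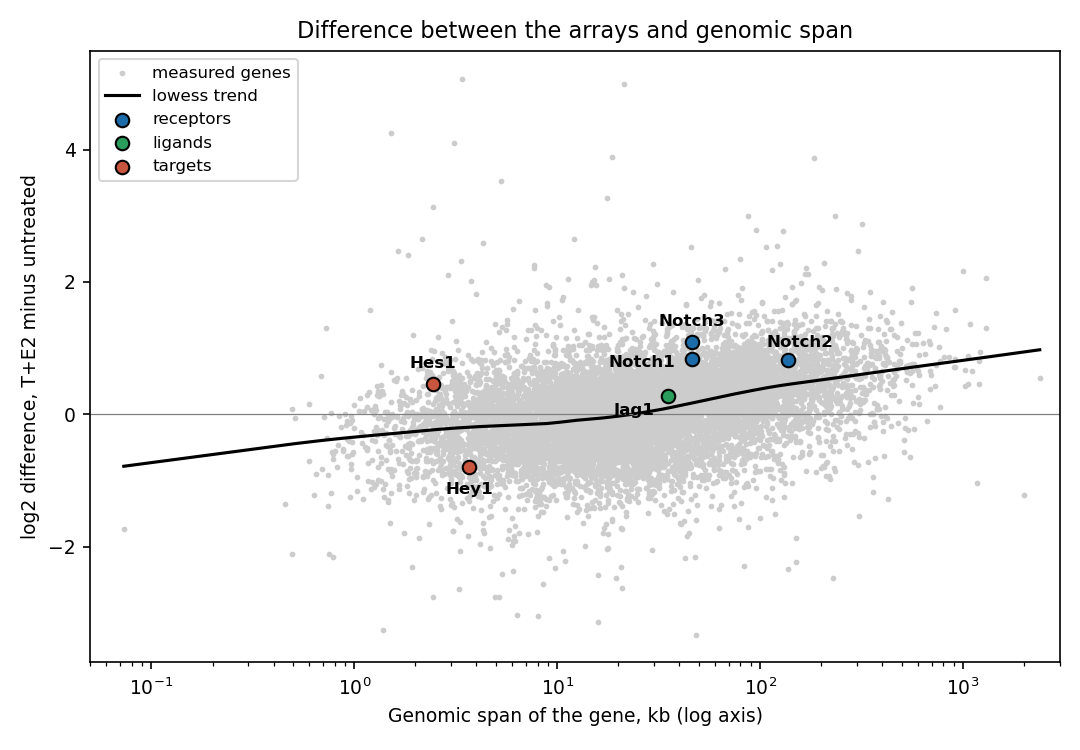
The log2 difference, T+E2 minus untreated (y axis), of each measured gene against its genomic span in kb (x axis, log scale), with a smoothed trend line and the 6 measured members in colour. The trend climbs with span; Notch1, Notch3 and Hes1 lie well above it, Jag1 and Notch2 nearer to it, and Hey1 below it.

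The label of the cells was checked against markers. Each sum covers all markers of a list with a probe set, also those under the floor. It depends on the probes, so the share of a gene in a sum gives no order of level. Of 10 mesenchymal markers 9 were measured, including Vim, Col1a1 and Pdgfra, with a summed intensity of 216985 with T+E2 and 197825 in untreated cells, and Thy1 was under the floor. Dcn (-0.58) and S100a4 (-0.10) were lower with T+E2 and the other measured ones higher, none by 2-fold. Notch3 and Heyl are also genes of mural cells, and Notch4, Dll4 and Hey1 of endothelium. Of 11 smooth muscle and pericyte markers 5 were measured, with a summed intensity of 30807 with T+E2 and 29668 in untreated cells. Acta2, at 27462 with T+E2 and 25121 in untreated cells, made up most of that sum. The pericyte markers Cspg4 (0.96), at 496 with T+E2 and 254 in untreated cells, and Mcam (0.59), at 120 with T+E2 and 80.2 in untreated cells, lay above 0 as Notch3 did, each under 2-fold, and Rgs5, Abcc9 and Kcnj8 were under the floor. Lmod1 was higher (1.65) and Tagln lower (-1.43). Of 13 endothelial markers only Tek was measured (0.20), with a summed intensity of 1093 with T+E2 and 956 in untreated cells, and Pecam1 and Cdh5 were at background. Of 13 epithelial markers 3 were measured, with a summed intensity of 6476 with T+E2 and 4124 in untreated cells. All 3 were higher with T+E2, while Epcam was at background. Esrp2 (0.64), at 5889 with T+E2 and 3782 in untreated cells, made up most of that sum. Trp63 stood at 0.47 and Cdh1 at 2.20, the latter at 190 with T+E2 and 41.4 in untreated cells, near the floor. Of 8 leukocyte markers Lyz2 alone was measured (-1.53), with sums of 405 with T+E2 and 1101 in untreated cells and Ptprc at background. Of 5 neural markers Ncam1 (0.94) and S100b (-0.16) were measured, with sums of 2469 with T+E2 and 1365 in untreated cells, and Sox10 was at background. The part of other cell types in the Notch differences was not tested.

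The members were followed through 9 other ways of processing the values. The sign of each of the 6 measured members held in every one that gave it a value. Several of these ways could not move a given value, so their count is no independent check. A changed floor does not alter genes well above it, and averaging does not alter a gene with a single probe set. Hey1 ranged from -0.87 to -0.60, Notch1 from 0.67 to 0.90 and Jag1 from 0.18 to 0.28. Notch2 had the widest range of the receptors, from 0.38 to 0.83, and stood at 0.41 when its background probe set was averaged in. Notch3 ranged from 0.92 to 1.09 and was at least 2-fold higher in 7 of the 9. It was short of 2-fold with the trend with span removed (0.92) and with its other probe set, the one whose ID ends in _at alone (0.97).

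**Figure D4:**
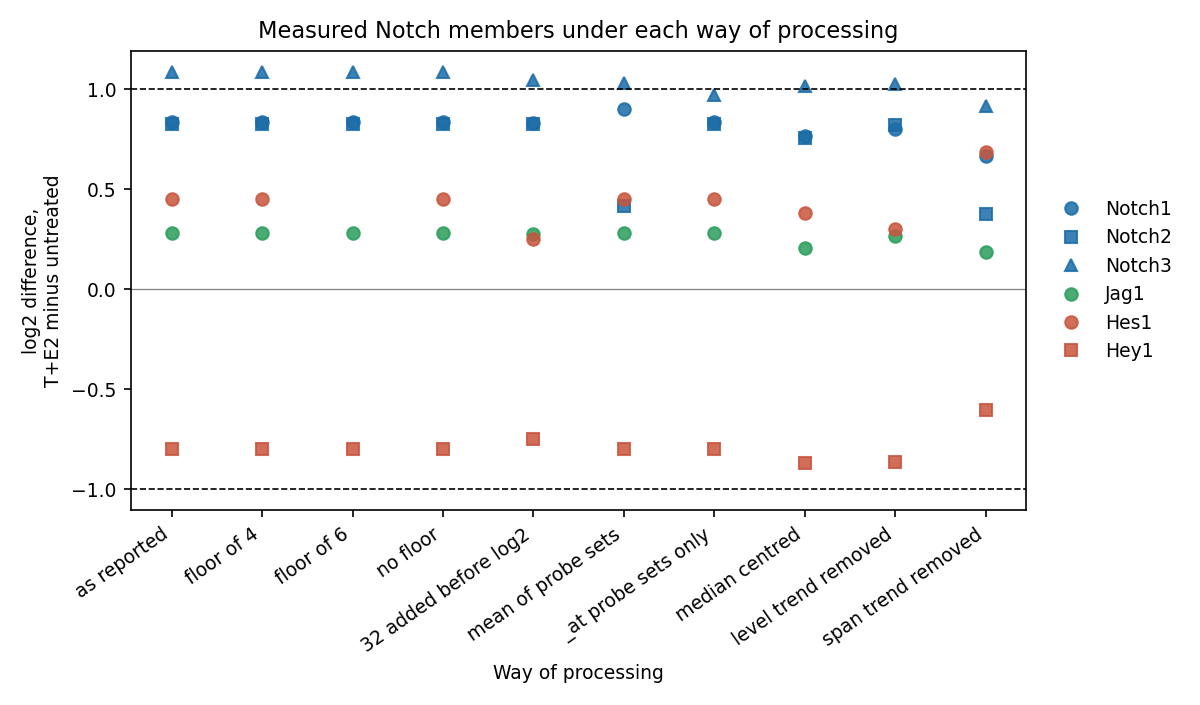
The log2 difference, T+E2 minus untreated (y axis), of the 6 measured members as reported and under 9 other ways of processing (x axis), 1 point per gene; dashed lines mark 2-fold. Hey1 lies below 0 and the other 5 above 0 throughout, Notch3 crosses the 2-fold line, and Hes1 has no value at a floor of 6.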

How the data were processed

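Per the labels' protocols, an Omega Bio-Tek kit gave total RNA, and NuGEN kits gave the biotinylated cDNA put on the arrays. The deposited intensity values were made by the authors with GCRMA, per the submitters' processing notes, in a version not stated. They are linear, with a range of 3.75 to 71889 with T+E2 and 3.82 to 67555 in untreated cells.

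Here log2 was taken with no further scaling and a floor of 5 was set on both arrays. Probe sets were named from the platform annotation, with symbols updated by gene ID through the RefSeq table of GRCm38.p6, where 18032 of 18193 genes were found. Probe sets with several genes (932), none listed (9160) or controls (64) were left out. A gene's value is its probe set with the highest mean log2. Trends were fitted with lowess (statsmodels 0.14.6, fraction 0.3). The number of arrays, 1 per group, limits the precision, and no test was made.

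The members, the pathway and marker lists and the alternatives were chosen with earlier results of these data known. Named are all members, listed genes past 2-fold, the 2 largest per role and Rbpj, Maml1, Ncstn, Adam10, Adam17, Lfng and Numb. Aph1a is named for a further probe set past 2-fold. A further gene of the rule is not reported here.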

Additional observations from a re-analysis of the deposited data

How the results depend on the processing

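No paired analysis was possible because each group had 1 array. Of 213 recomputed gene differences, 209 kept their sign, among them many that the setting could not change. The exceptions were Adam10 and Rbpj with the trend with span removed and Ncstn with centring (-0.05) or the level trend removed (-0.04). All of these were under 2-fold. A change was counted when a value moved by more than the SD of the spike differences (0.121) or a count by more than 1.5 times. With the trend with span removed, the median of the receptors was 0.67, of the targets 0.042 and of the other pathway genes 0.15. At least 2-fold higher were 0 of 6 members and 1 of 42 other genes, against 301 of 10237 genes in all. Probe sets ending in _at alone leave out the one that gave Notch3 its value. With them, 0 of 6 members and 4 of 39 other genes were at least 2-fold higher, and 1 of the 39 was lower. Of all 9819 genes measured this way, 532 were higher and 445 lower. With probe sets of a gene averaged, 0 of 42 other pathway genes were higher and 1 lower, against 260 and 326 of 10268 genes in all. At a floor of 6, Hes1 dropped out and the median of the targets was -0.80. At that floor 1 of 42 other genes was lower, against 373 of 9891 genes in all. With 32 added, 1 of 42 other genes was lower, against 323 of 10267 genes in all. Without a floor, where background values enter, the medians were 0.014 for ligands and 0.0056 for targets. The low signal of Hes1 limits its value. Other causes were not tested.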
